A study of Rattus norvegicus with 24 samples.

Results

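Ccn1, Ccn2, Thbs1, Ankrd1, Ankrd2, Csrp3 and Xirp1 are genes whose transcripts are known to respond to mechanical load on cells and muscle. The 7 rows with these gene symbols were taken from a table of 21067 genes, and all 7 were among the 14772 genes tested. The genes were selected on earlier results of these data, in which Ccn1 differed between treadmill and control rats. Their differences in that comparison are therefore given as a description, with no test.

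The libraries came from the quadriceps femoris of 24 Sprague-Dawley rats of both sexes, which were 6 weeks old on arrival, with 6 rats in each of 4 groups. The control group (blank in the labels) did no treadmill training. The treadmill group trained for 7 weeks at a speed raised in steps to 35 m/min and then held, and afterwards ran to exhaustion at 35 m/min. Catgut group 1 received acupoint catgut embedding, the placing of a thread that the body absorbs, at Bai Hui, Han Gou, Qian Shen, Qiang Feng, Xie Qi and Yang Wa, and was then trained and run in the same way. Catgut group 2 received embedding at these acupoints and at Fei Shu. Several of these points lie over the hind limb muscles, and no embedded group without exercise was analysed here. The labels do not give the sex of each rat, and the summed level of Y-linked genes was above 1 FPKM in 3 control, 3 treadmill, 3 catgut group 1 and 2 catgut group 2 libraries. Each library is 1 muscle sample, so a smaller share of a cell type and less RNA per cell cannot be told apart.

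The CCN proteins and thrombospondin 1 are secreted into the matrix, where they bind integrins and growth factors and do not serve mainly as structural fibres. Their genes are rapid targets of the Hippo effectors YAP and TAZ, which act through TEAD factors, and of serum response factor (SRF), and both routes respond to tension in the actin skeleton. The muscle ankyrin repeat proteins Ankrd1, Ankrd2 and Ankrd23 bind the spring region of titin in the sarcomere and can also enter the nucleus. Csrp3, the muscle LIM protein, and Xirp1, also called Xin, are actin-associated proteins of the Z-disc and of sites of sarcomere repair. Ankrd2 and Csrp3 are known to be more abundant in slow than in fast muscle fibres.

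The RefSeq windows from 250 bases before to 50 bases after the start site are shown for the 3 genes of secreted proteins, because these hold the letters of the TEAD motif. The sequences run 5′ to 3′ on the strand of the gene, in build GRCr8, and capitals mark GGAATG or its reverse complement CATTCC. Ccn1 lies at chr2:237225640-237225939 (minus strand), Ccn2 at chr1:22624565-22624864 (minus strand) and Thbs1 at chr3:125510000-125510299 (plus strand).
Ccn1: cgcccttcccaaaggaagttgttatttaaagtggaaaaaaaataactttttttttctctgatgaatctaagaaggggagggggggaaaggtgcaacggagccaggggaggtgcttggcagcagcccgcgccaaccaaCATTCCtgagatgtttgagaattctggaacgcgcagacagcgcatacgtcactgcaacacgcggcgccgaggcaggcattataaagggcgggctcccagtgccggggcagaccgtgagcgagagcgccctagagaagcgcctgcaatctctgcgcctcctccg
Ccn2: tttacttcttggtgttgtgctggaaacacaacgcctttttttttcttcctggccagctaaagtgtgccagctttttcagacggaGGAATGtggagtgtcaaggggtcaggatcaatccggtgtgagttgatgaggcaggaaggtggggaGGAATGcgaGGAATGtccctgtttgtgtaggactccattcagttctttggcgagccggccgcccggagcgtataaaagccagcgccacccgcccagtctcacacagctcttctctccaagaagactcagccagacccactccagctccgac
Thbs1: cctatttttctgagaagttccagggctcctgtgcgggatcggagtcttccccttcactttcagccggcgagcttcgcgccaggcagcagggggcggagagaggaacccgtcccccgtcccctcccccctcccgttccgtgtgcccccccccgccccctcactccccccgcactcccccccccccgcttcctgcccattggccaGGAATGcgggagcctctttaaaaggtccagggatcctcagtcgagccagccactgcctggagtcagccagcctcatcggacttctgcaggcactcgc
The motif stood 113 bases before the start of Ccn1, 166, 101 and 92 bases before that of Ccn2, and 47 bases before that of Thbs1. Of 33469 rat windows of this length, 14.2% held it on either strand. The windows of Ankrd2 and Xirp1 did not hold these 6 letters. The letters TATAAA stood 34, 31 and 40 bases before the starts of Ccn1, Ccn2 and Ankrd2 and were in 14.2% of all windows. The AP-1 motif TGANTCA matched 1 site of Xirp1, which lies in 2 overlapping windows, 208 and 216 bases before their starts, and was in 7.33% of all windows. The cyclic AMP response element TGACGTCA (1.83% of all windows) and the CArG box bound by SRF (1.64%) matched none of the windows of these 5 genes. The overlap of motifs with each other was not examined, and a match describes letters only. The windows used here hold 5 of the 7 genes, without Ankrd1 and Csrp3.

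Levels are given in FPKM, fragments scaled to transcript length and to the mapped fragments of the library, so that they can be set side by side between genes. By mean FPKM over the 24 libraries the order was Ccn1 (94.5), Csrp3 (66.9), Xirp1 (23.9), Ccn2 (15.7), Ankrd2 (14.4), Ankrd1 (7.72) and Thbs1 (2.99). Total counts were 45945938 to 78278080 per library, and each library's median correlation with the others was 0.961 to 0.979. The 6 fibre genes Ckm, Acta1, Mylpf, Tnnt3, Myh1 and Mb summed to 78014 to 106992 FPKM over the libraries, and each was above 0 in every library, as the labelled muscle requires. The labels' extraction protocol speaks of adipose. The adipocyte genes summed to 33.1 to 60.6 FPKM, of which Plin4, also a gene of muscle, held 28.3 to 57.6, while Adipoq averaged 3.72 FPKM and Lep 0.142. Control replicate 2 and treadmill replicate 3 stood apart in liver transcripts, with 135 and 226 FPKM of Alb, the serum albumin gene, against at most 14.4 FPKM elsewhere.

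**Figure D1:**
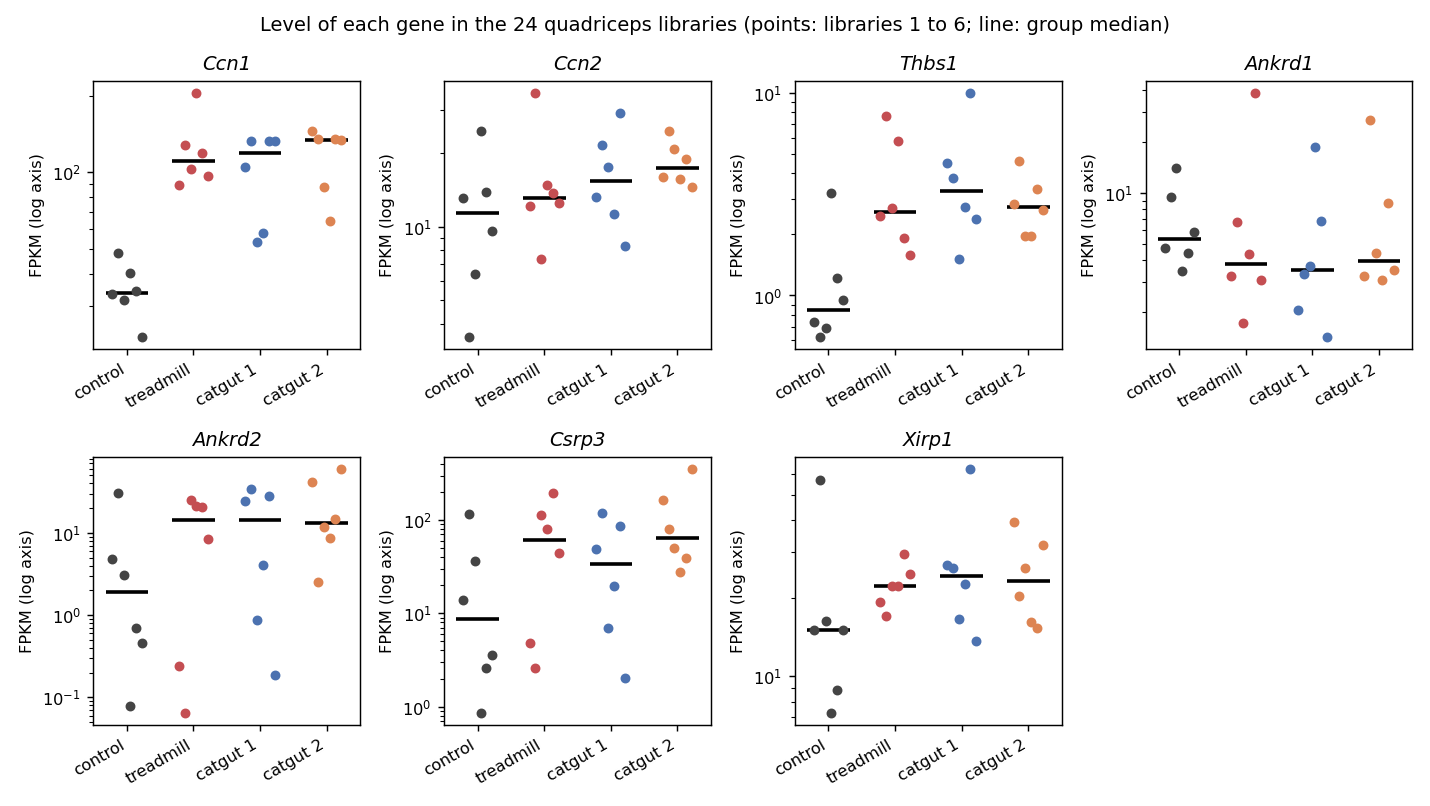
FPKM of each of the 7 genes (log axis) by group, with 1 point per library and a line at the group median. All 18 exercised libraries lay above all 6 control libraries for Ccn1, while the groups overlapped for the other 6 genes.

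Ccn1 (ENSRNOG00000014350; chromosome 2, 251529354 to 251532312, minus strand, as the table lists it, with the build not given in the sources used here) codes for a secreted CCN protein that binds integrins. Its level in the control libraries was 22.6 to 48.2 FPKM, with a median of 33.6. The treadmill libraries held 89.1 to 205 FPKM (median 111), those of catgut group 1 held 53.2 to 133 (median 119) and those of catgut group 2 held 64.5 to 146 (median 135). The lowest exercised library, catgut group 1 replicate 3, was thus above the highest control library, replicate 2. Of all genes tested, 8 (0.0542%) had all 18 exercised libraries above all 6 control libraries, and Ccn1 was 1 of these. This count includes the treadmill libraries on which the choice of Ccn1 rests.

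In the treadmill group Ccn1 averaged 124 ± 42.2 FPKM (SD, n = 6) against 34.98 ± 8.60 in the control group, a fitted log2 fold change of 1.86 ± 0.223 (SE). As a description fixed by that choice, 1 of the 7 genes was past an adjusted p of 0.05 here (0.0542% of all genes) and 1 had groups that did not overlap (0.447% of all genes), and nothing is read from these counts. Without control replicate 4 the first count was 0, while the fold change of Ccn1 was 1.86 as before.

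Ccn1 averaged 117 ± 32.8 FPKM (SD, n = 6) in catgut group 2, 3.41 times the fitted control level. The log2 fold change was 1.77 ± 0.238 (SE), with a 95% interval of 1.24 to 2.30 and an adjusted p of 0.0118 by edgeR's quasi-likelihood test. All 6 libraries exceeded every control library, and the exact permutation test gave the smallest two-sided p it can give, 0.00216. Ccn1 kept the call without any 1 of the 12 libraries, with an adjusted p by edgeR of 0.0388 at most, and lost it with the slow-fibre level of these libraries as a covariate (1.41, adjusted p = 0.0651).

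In catgut group 1 Ccn1 averaged 102 ± 38.0 FPKM (SD, n = 6), a log2 fold change of 1.56 ± 0.256 (SE; 95% interval 0.99 to 2.13) against control. It missed the threshold in the test across all genes, with an adjusted p of 0.0816 by edgeR. The groups did not overlap, again with an exact permutation p of 0.00216. Replicates 3 and 4 of this group, at 53.2 and 57.9 FPKM, lay apart from its other 4 libraries at 105 to 133 FPKM. Without replicate 3 the adjusted p by edgeR was 0.00933, without control replicate 2 it was 0.0453, and without each of the other libraries in turn it stayed above the threshold, at up to 0.216. All these comparisons share the same 6 control libraries. Ccn1 was chosen for a difference from those libraries, so their low values entered the choice, and the p-values of Ccn1 against control are not independent of it.

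Between the 3 exercised groups no difference in Ccn1 was found. The log2 fold change against the treadmill group was -0.31 ± 0.276 in catgut group 1 (SE; 95% interval -0.92 to 0.31) and -0.09 ± 0.264 in catgut group 2 (-0.68 to 0.50). Between catgut groups 2 and 1 it was 0.21 ± 0.289 (-0.43 to 0.86). The exact permutation p-values were 0.325, 0.781 and 0.439.

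Thbs1 (ENSRNOG00000045829; chromosome 3, 109862117 to 109873466) codes for thrombospondin 1, which activates latent TGF-beta and restrains vessel growth. Over the 6 rats of a group the level spanned 0.624 to 3.20 FPKM in controls (median 0.845), 1.58 to 7.66 for treadmill (median 2.59), 1.51 to 9.94 for catgut 1 (median 3.26) and 1.97 to 4.59 for catgut 2 (median 2.72). Control replicate 4, at 3.20 FPKM, overlapped the exercised libraries, while the other 5 control libraries lay below all of them. The lowest count behind these values was 182.

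Thbs1 differed from control by a log2 fold change of 1.61 ± 0.444 (SE) in the treadmill group. In catgut group 1 it was 1.80 ± 0.477 with a 95% interval of 0.73 to 2.86, and the adjusted p by edgeR was 0.302. Catgut group 2 had 1.28 ± 0.365 with an interval of 0.47 to 2.09 and an adjusted p of 0.128. The exact permutation p was 0.0130 in both embedded groups, against the same control libraries. The genes were chosen with earlier results of these data known, so these p-values are not independent of the choice. Thbs1 was thus under 0.05 in single tests with that limit, and did not pass the correction over all genes. Without control replicate 4 its log2 fold change in catgut group 2 was 1.73, with an adjusted p of 0.0197. Against the treadmill group it was 0.18 ± 0.454 in catgut group 1 and -0.33 ± 0.348 in catgut group 2, with adjusted p-values of 0.990 and 0.819 by edgeR.

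Ccn2 (ENSRNOG00000015036; chromosome 1, 21851660 to 21854773, minus strand), formerly connective tissue growth factor, codes for a secreted protein that is tied to matrix production by fibroblasts. The control libraries held 3.53 to 24.5 FPKM with a median of 11.3, and the treadmill libraries 7.37 to 35.1 FPKM with a median of 13.1. Those of catgut group 1 held 8.30 to 29.0 FPKM (median 15.4) and those of catgut group 2 14.5 to 24.5 FPKM (median 17.4). Every exercised group overlapped the control group, in which replicate 4 was highest. The log2 fold change against control was 0.45 ± 0.396 (SE) in the treadmill group, 0.53 ± 0.380 in catgut group 1 and 0.66 ± 0.326 in catgut group 2. Neither catgut comparison passed (adjusted p = 0.694 and 0.336 by edgeR), and the interval in catgut group 2 was -0.06 to 1.39.

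Ankrd1 (ENSRNOG00000018598; chromosome 1, 254726969 to 254735548, minus strand) codes for a titin-binding ankyrin repeat protein that is scarce in healthy limb muscle and is known to be induced by stretch, injury and denervation. Over the 6 rats of a group the level spanned 3.46 to 14.1 FPKM in controls (median 5.32), 1.72 to 38.5 for treadmill (median 3.80), 1.42 to 18.6 for catgut 1 (median 3.52) and 3.08 to 26.9 for catgut 2 (median 3.96). In each exercised group 1 library stood high: treadmill replicate 5, catgut group 1 replicate 4 and catgut group 2 replicate 2. The group medians were lower in all 3 exercised groups than in the control group, while the group means were 9.60, 5.98 and 8.30 FPKM against 7.01 FPKM.

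The log2 fold change of Ankrd1 against control was 0.50 ± 0.712 (SE) in the treadmill group, -0.18 ± 0.603 in catgut group 1 and 0.18 ± 0.553 in catgut group 2. Without treadmill replicate 5 the first became -0.91, and without catgut group 2 replicate 2 the third became -0.60. The adjusted p-values in the catgut groups were 0.955 and 0.913 by edgeR. The 95% interval in catgut group 2 was -1.05 to 1.41 on the log2 scale.

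Ankrd2 (ENSRNOG00000013840; chromosome 1, 261281543 to 261291394) codes for the related titin-binding protein of slow fibres. The control libraries held 0.0776 to 30.2 FPKM with a median of 1.90, and the treadmill libraries 0.0650 to 25.2 FPKM with a median of 14.4. Those of catgut group 1 held 0.189 to 34.4 FPKM (median 14.3) and those of catgut group 2 2.53 to 59.9 FPKM (median 13.2). The lowest control and treadmill libraries held 8 and 7 counts, under the limit of 12 counts (3 fragments) for detection. The groups overlapped throughout, with a range of 183-fold inside catgut group 1.

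Csrp3 (ENSRNOG00000014327; chromosome 1, 104147206 to 104166367, minus strand) codes for the muscle LIM protein of the Z-disc. Over the 6 rats of a group the level spanned 0.861 to 117 FPKM in controls (median 8.71), 2.59 to 194 for treadmill (median 61.6), 2.02 to 118 for catgut 1 (median 34.1) and 27.5 to 353 for catgut 2 (median 65.0). Control replicate 2 was high among its group, and the range inside the control group was 136-fold.

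Csrp3 and Ankrd2 had the largest fitted differences of the 7 genes in catgut group 2 against control, 2.05 ± 1.08 and 1.85 ± 1.15 on the log2 scale (SE). Neither passed the correction over all genes, with adjusted p-values of 0.364 and 0.456 by edgeR. The exact permutation p was 0.0325 for Csrp3, under 0.05 as a single test, and 0.0519 for Ankrd2. Both p-values rest on the control libraries of the comparison behind the choice of genes, so they are not independent of it. In the treadmill group the log2 fold changes were 1.37 ± 1.19 and 0.98 ± 1.32, and in catgut group 1 they were 0.64 ± 1.11 and 1.19 ± 1.28. Control replicate 2 had 135 FPKM of Alb and also the highest summed level of slow-fibre transcripts of the control group, 1931 FPKM. Without this library the log2 fold changes of Csrp3 and Ankrd2 were 2.75 and 2.84 in the treadmill group, 2.02 and 3.04 in catgut group 1 and 3.43 and 3.71 in catgut group 2. In the catgut comparisons with control the adjusted p stayed above the threshold without any single library, at 0.126 or more.

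Xirp1 (ENSRNOG00000037085; chromosome 8, 128702133 to 128711221, minus strand) codes for an actin-binding protein that gathers at damaged myofibrils. The control libraries held 7.25 to 56.7 FPKM with a median of 15.1, and the treadmill libraries 17.1 to 29.6 FPKM with a median of 22.3. Those of catgut group 1 held 13.7 to 62.7 FPKM (median 24.4) and those of catgut group 2 15.3 to 39.3 FPKM (median 23.3). Control replicate 2 was above every treadmill and catgut group 2 library, while the other 5 control libraries, at most 16.3 FPKM, lay below all treadmill libraries. The log2 fold changes against control were 0.20 ± 0.451 (SE), 0.47 ± 0.513 and 0.32 ± 0.486, and in the catgut groups the adjusted p was 0.813 and 0.799 by edgeR. Without control replicate 2 they were 0.89, 1.15 and 1.00, and none was called.

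**Figure D2:**
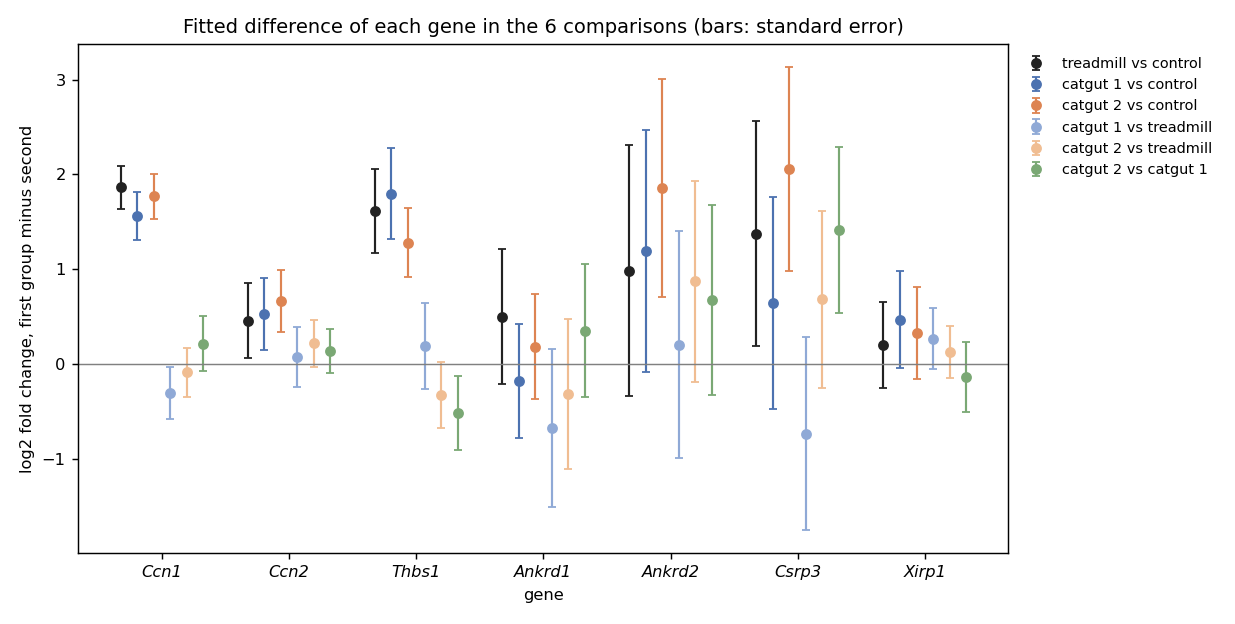
Fitted log2 fold change of each gene (first group minus second, points) with its standard error (bars) in the 6 comparisons. Ccn1 lay between 1.56 and 1.86 in the 3 comparisons with control and near 0 between the exercised groups, while Ankrd2 and Csrp3 had the widest errors.

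Counted over the 7 genes, 0 passed the adjusted threshold in catgut group 1 against control, where 0.0203% of all genes passed. At an unadjusted p under 0.05 by edgeR, 2 did (9.84% of all genes), and DESeq2 called 2 (1.13%), Ccn1 and Thbs1 in each case. The groups did not overlap for 1 of the 7, where 0.393% of all genes did not. For catgut group 2 against control 1 passed (0.508% of all genes), 2 had an unadjusted p under 0.05 (16.4%), DESeq2 called 2 (4.82%), and 1 did not overlap (1.09%). In both comparisons the gene without overlap was Ccn1, and in catgut group 2 so was the gene that passed. Ccn1 was chosen for a difference from these same control libraries, so the choice fixes these counts in part. The median log2 fold change of the 7 genes was 0.98 in the treadmill group, 0.64 in catgut group 1 and 1.28 in catgut group 2, against 0.00, -0.01 and 0.00 over all genes tested. These medians were the values of Ankrd2 (SE 1.32), Csrp3 (SE 1.11) and Thbs1 (SE 0.365). The treadmill median comes from the comparison used for the choice. The catgut medians share its control libraries, and the 7 genes were chosen with earlier results of these data known. All 3 medians are therefore descriptions only.

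Between the exercised groups, which address whether embedding was followed by another level in muscle that had done the same exercise, none of the 7 genes was called. In catgut group 1 against treadmill edgeR called 0 of 7 (0.0474% of all genes), 0 had an unadjusted p under 0.05 (6.93%), 0 were without overlap (0.413%), and DESeq2 and limma called 0. In catgut group 2 against treadmill the counts were 0 (0.237%), 0 (10.7%) and 0 (1.04%). In catgut group 2 against catgut group 1 they were 0 (0.00677%), 0 (3.26%) and 0 (0.162%). DESeq2 and limma called 0 of the 7 in these comparisons as well. The medians of the 7 log2 fold changes were 0.07, 0.13 and 0.21.

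The libraries of 1 group differed more in these genes than in most. Among 10475 genes with a mean of at least 1 FPKM, the SD of log2(FPKM + 1) within groups was 2.06 for Csrp3 and 1.91 for Ankrd2, at percentiles 99.8 and 99.7. It was 1.08 for Ankrd1 (percentile 98.3), 0.68 for Xirp1 (95.5), 0.65 for Ccn2 (94.99), 0.59 for Thbs1 (94.0) and 0.48 for Ccn1 (90.2).

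Ankrd2, Csrp3 and Xirp1 varied together over the 24 libraries. Pearson's r of log2(FPKM + 1) was 0.93 between Ankrd2 and Csrp3, 0.77 between Csrp3 and Xirp1 and 0.75 between Ankrd2 and Xirp1. Ccn1 and Thbs1 had an r of 0.73 and Ccn2 and Thbs1 one of 0.70, while Ccn1 and Ccn2 had 0.38. After each group's mean was taken off, these 3 were 0.56, 0.67 and 0.11. The r of Ankrd1 with each of the other 6 was between -0.07 and 0.23. These correlations describe the same 24 libraries and carry no p.

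**Figure D3:**
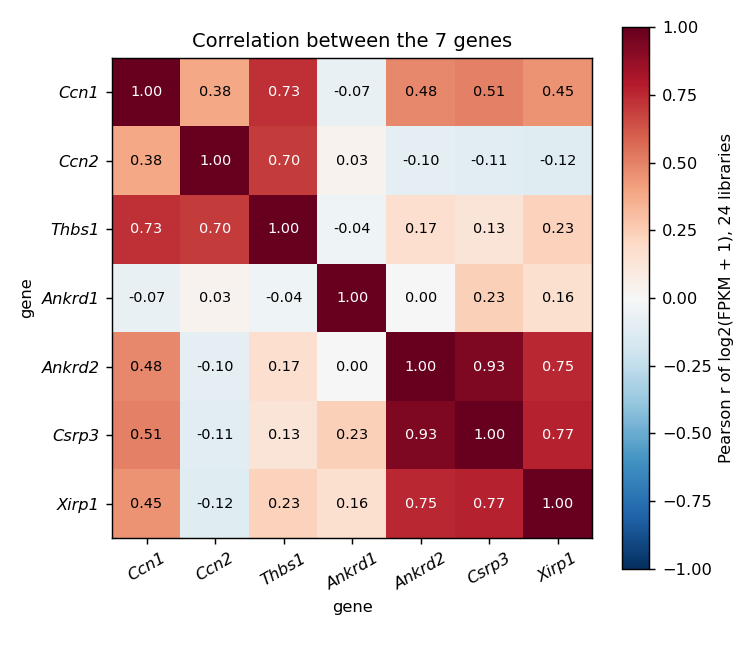
Pearson's r of log2(FPKM + 1) over the 24 libraries for each pair of the 7 genes (colour scale from -1 to 1). Ankrd2, Csrp3 and Xirp1 form 1 block of values from 0.75 to 0.93, and Ankrd1 has values near 0 with all others.

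The level of slow-fibre transcripts moved with the sarcomere genes. The 8 slow-fibre genes, which include the slow myosin gene Myh7 and the slow troponin genes Tnnt1 and Tnni1, summed to 54.9 to 1931 FPKM over the control libraries and 26.6 to 2369 over those of the treadmill group. The sums were 22.5 to 3570 in catgut group 1 and, in catgut group 2, 339 to 4686 FPKM. The group medians were 237, 982, 1666 and 1501 FPKM. All 8 were listed, and Myl2 was at 0 in 8 of the 24 libraries. None of the 8 was called in any comparison, with 2 higher at an unadjusted p under 0.05 in catgut group 2 against control, where 16.4% of all genes had such a p in either direction.

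The log2 summed slow-fibre level had an r of 0.95 with Ankrd2, 0.89 with Csrp3 and 0.70 with Xirp1, against 0.41 with Ccn1, 0.15 with Thbs1, -0.08 with Ccn2 and -0.03 with Ankrd1. With each group's mean taken off, r was 0.94, 0.88 and 0.67 for the first 3, and 0.29 for Ccn1. Without the 2 libraries farthest from the median slow-fibre level, r was 0.70 with Ccn1, close to the 0.73 with Xirp1. On the same libraries it was 0.95 with Ankrd2, 0.86 with Csrp3, 0.40 with Thbs1, -0.01 with Ccn2 and -0.18 with Ankrd1. With that level as a covariate, an alternative chosen after the data were seen, the log2 fold change of Ankrd2 against control changed sign to -0.27 in catgut group 1 and -0.22 in catgut group 2. That of Csrp3 was -0.29 in catgut group 1 and 0.72 in catgut group 2, and in the treadmill group those of Csrp3 and Ankrd2 were 1.19 and 0.42. In catgut group 2 against control Xirp1 came to -0.51, Ccn2 to 1.40 (adjusted p = 0.147 by edgeR) and Thbs1 to 2.03 (adjusted p = 0.0748 by edgeR). Heart-muscle genes are shared with slow fibres in part: Myh6 reached 34.1 FPKM, while Tnni3 and Myl7 did not exceed 0.0958 and 0.0483 FPKM.

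**Figure D4:**
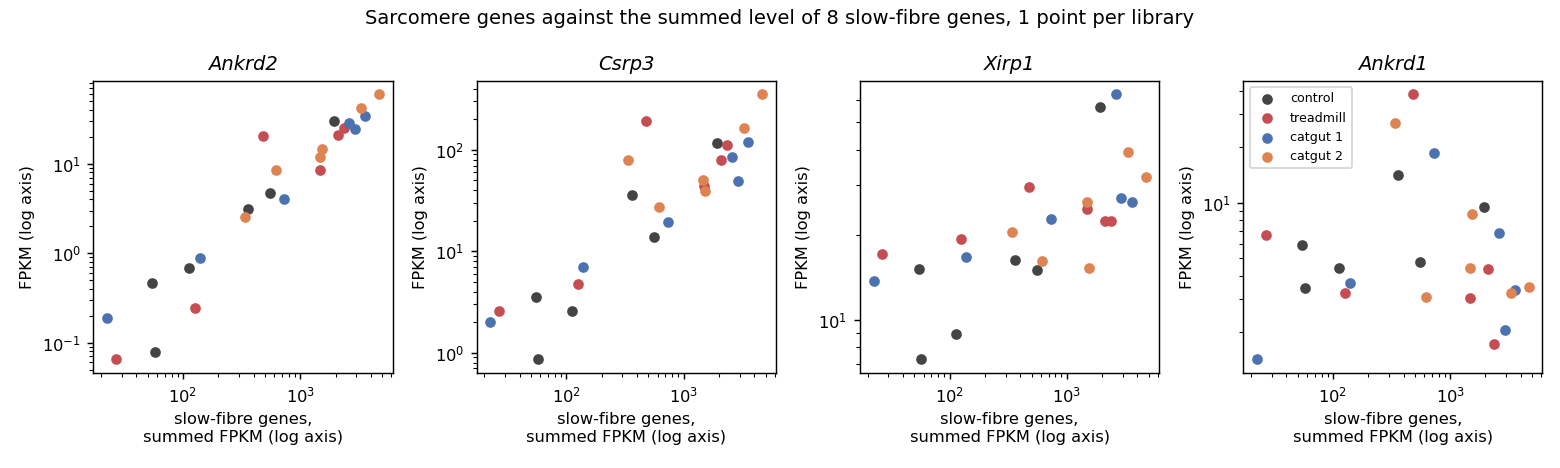
FPKM of Ankrd2, Csrp3, Xirp1 and Ankrd1 against the summed FPKM of 8 slow-fibre genes (both log axes), 1 point per library, coloured by group. Over all 24 libraries Ankrd2 and Csrp3 rise along the axis (r of the log values 0.95 and 0.89), and Ankrd1 does not (-0.03). With each group's mean taken off, the first 2 values were 0.94 and 0.88.

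For the secreted proteins other markers moved. The summed level of 6 fibroblast genes had an r of 0.72 with Ccn2 and 0.42 with Thbs1, against 0.00 with Ccn1. It ranged from 68.4 to 539 FPKM over the control libraries, 103 to 473 over those of the treadmill group, 105 to 284 for catgut 1 and 98.2 to 550 for catgut 2, and all 6 genes were above 0 in every library. Control replicate 4, the control library with the most Ccn2 and Thbs1, had 197 FPKM of the fibroblast gene Dcn, against 34.6 to 114 in the other control libraries. The 6 macrophage genes had an r of 0.60 with Ccn2 and 0.45 with Thbs1, at summed levels of 2.55 to 23.1 FPKM. The 5 endothelial genes had an r of 0.56 with Thbs1 and 0.50 with Ccn1, at 33.0 to 76.7 FPKM. The blood cell genes Hbb and Alas2 had an r of 0.52 with Ccn1, 0.48 with Thbs1 and 0.11 with Ccn2. For the platelet genes r was 0.50 with Ccn2, 0.41 with Thbs1 and 0.14 with Ccn1. The 5 fast-fibre genes had an r of -0.69 with Ccn1, -0.51 with Thbs1 and -0.28 with Ccn2. With each group's mean taken off, these were -0.74, -0.43 and -0.01. The part of these cell types in the results was not tested.

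For each of the 7 genes, the 3 most alike among 9263 tested genes with a symbol and a mean of at least 1 FPKM were taken by Pearson's r of log2(FPKM + 1) over the 24 libraries. Closest to Ccn1 were Btg2 (r = 0.93), Egr1 (0.92) and Arc (0.92), genes of the immediate-early response. Within groups these were 0.83, 0.70 and 0.70. Btg2, a regulator of cell division, was at 13.5 to 50.5 FPKM in the control libraries and at 24.4 to 112 FPKM in the exercised ones. The zinc finger gene Egr1 was at 2.31 to 20.4 FPKM in the control libraries and at 17.5 to 111 FPKM in the exercised ones.

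Closest to Thbs1 were the stress kinase gene Plk3 (0.90), Lrrc32 (0.88), whose product holds latent TGF-beta at the cell surface, and the focal adhesion gene Zyx (0.88). Closest to Ccn2 were Pttg1ip (0.84), Abracl (0.84) and the actin-binding Tagln2 (0.83). Xirp1 was most like the calcineurin regulator Rcan1 (0.85), the co-chaperone Dnajb5 (0.84) and the small heat shock protein Cryab (0.82).

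Ankrd2 was most like Myoz2 (0.95), a Z-disc protein of slow fibres, Myh7 (0.94) and Tnni1 (0.94). Csrp3 was most like the small heat shock protein Hspb7 (0.96), the M-band protein Myom3 (0.93) and Ankrd2 (0.93). Myoz2, Myh7 and Tnni1 ranged from 0.798 to 387, 0.0984 to 417 and 0.373 to 374 FPKM over the libraries.

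Ankrd1 was most like Mylk4 (0.77), which codes for a myosin light chain kinase, Otulin (0.76) and Egf (0.59). Mylk4 was listed at 0 in 21 of the 24 libraries. In the other 3 it was at 15.8 FPKM (treadmill replicate 5), 38.1 FPKM (catgut group 1 replicate 4) and 42.8 FPKM (catgut group 2 replicate 2), the same 3 libraries in which Ankrd1 was highest. Treadmill replicate 5 and catgut group 2 replicate 2 lay farthest from the median of Ankrd1. Without these 2 libraries the r with Mylk4 was 0.54 and that with Otulin 0.50. Of the libraries left, only catgut group 1 replicate 4 had Mylk4 above 0, so this r with Mylk4 rests on 1 library. Hspb7 was at 178, 57.4 and 110 FPKM in the 3 libraries with Mylk4 above 0, inside its range of 20.9 to 357 FPKM in the other libraries.

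**Figure D5:**
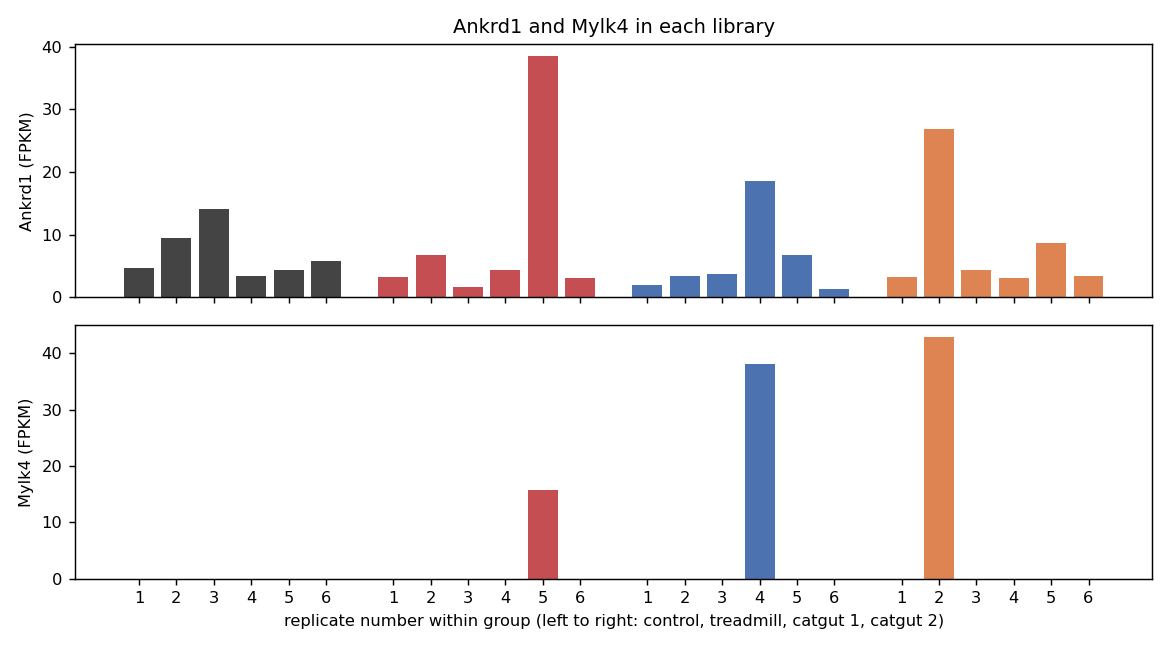
FPKM of Ankrd1 (upper bars) and Mylk4 (lower bars) in each of the 24 libraries, ordered by group and replicate number. The 3 libraries with Mylk4 above 0 are those with the highest Ankrd1, at 38.5, 18.6 and 26.9 FPKM.

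The other members of the same gene families did not all follow. Of the CCN and thrombospondin family, 11 genes were listed and 9 tested, and Ccn1 was the 1 called in catgut group 2 against control. Ccn5, a CCN protein that lacks the last domain of the others, had median levels of 1.33 FPKM in the control group and 0.26 FPKM in catgut group 2, with a log2 fold change of -2.28 ± 0.701 (SE) and an adjusted p of 0.149 by edgeR. Thbs4, a thrombospondin of muscle and tendon, was at 1.33 to 34.0 FPKM in the control group and 4.98 to 64.0 FPKM in catgut group 2. Ccn4 and Ccn6 stayed at or below 0.41 and 0.02 FPKM and were not tested.

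Ankrd23, the third ankyrin repeat protein that binds titin, was far more abundant than Ankrd1 or Ankrd2. Control libraries held 1312 to 1833 FPKM (median 1528), treadmill libraries 1346 to 2168 (median 1687), those of catgut group 1 950 to 1261 (median 1030) and those of catgut group 2 862 to 1234 (median 1063). Each catgut group lay wholly below the control and treadmill ranges. Of all genes tested, 0.393% and 1.09% had no overlap between catgut groups 1 and 2 and control. Against treadmill these shares were 0.413% and 1.04%. The log2 fold changes of Ankrd23 were -0.56 ± 0.131 and -0.59 ± 0.139 (SE) against control and -0.69 ± 0.148 and -0.72 ± 0.154 against treadmill. The adjusted p-values by edgeR were 0.249, 0.080, 0.150 and 0.088, so none passed.

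Csrp2, a LIM protein better known from smooth muscle, was at 1.82 to 4.47 FPKM in the control group and at 4.18 to 7.84 FPKM in catgut group 2, a log2 fold change of 1.02 ± 0.243 (SE) with an adjusted p of 0.082 by edgeR. Its log2 fold change was 0.10 ± 0.214 in treadmill against control and 0.93 ± 0.259 in catgut group 1 against control. Against the treadmill group it was 0.83 ± 0.208 in catgut group 1 and 0.93 ± 0.190 in catgut group 2, with adjusted p-values of 0.249 and 0.073 by edgeR. Xirp2, the relative of Xirp1 in the sarcomere, fell from a median of 67.1 FPKM in the control group to 45.8 FPKM in catgut group 2, with a log2 fold change of -0.75 ± 0.136 (SE) and an adjusted p of 0.039 by edgeR.

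Among the genes of the pathways around these 7, calls by edgeR at an adjusted p of 0.05 were made in catgut group 2 against control, where 0.508% of all genes were called. Of 20 YAP and TAZ targets tested, 2 rose (Amotl2, and Ccn1, which was chosen from these data) and 0 fell, and the median log2 fold change of the list was 0.24. Amotl2, an angiomotin that holds YAP at cell junctions and is also 1 of the 20 Hippo components, averaged 8.98 ± 2.06 FPKM (SD, n = 6) against 4.60 ± 0.943, a log2 fold change of 0.96 with an adjusted p of 0.013 by edgeR. Of 20 Hippo components it was the 1 called, and the median was -0.03.

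Of 18 SRF targets and regulators tested, 2 rose and 0 fell in that comparison (0.508% of all genes called), with a median of 0.47. Egr1 averaged 58.5 ± 22.0 FPKM (SD, n = 6) against 9.95 ± 6.72, and Actb, cytoplasmic actin, 220 ± 27.9 against 138 ± 32.5. Of 24 Z-disc, LIM and actin-binding proteins 0 rose and 2 fell: Xirp2 and Cmya5, a protein of the costamere, at 193 ± 41.5 FPKM (SD, n = 6) against 295 ± 25.7. The median of that list was 0.03. Among the cell type markers Rgs5, a pericyte gene, was called at 80.5 ± 18.6 FPKM (SD, n = 6) against 53.4 ± 7.77. It was the 1 called of 6 smooth muscle and pericyte genes, and the median log2 fold change of these was 0.24. With each of the 12 libraries left out in turn, Amotl2 was called in 12 of 12 fits, Rgs5 in 4, Xirp2 in 3 and Egr1, Actb and Cmya5 in 2 each, with adjusted p-values by edgeR of up to 0.104.

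No gene was called among 12 TGF-beta ligands, receptors and their partners, 10 receptors of CCN proteins and thrombospondins or 8 titin-binding and associated proteins, with medians of -0.04, 0.11 and -0.01. At an unadjusted p under 0.05 by edgeR, which 16.4% of all genes reached, 2, 2 and 0 of these were higher and 0, 0 and 1 lower. In the pathway lists 0 genes were called in catgut group 1 against control, in either catgut group against treadmill or between the catgut groups. Treadmill against control, on which Ccn1 was chosen, is left out of these counts.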

How the data were processed

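The authors extracted RNA from quadriceps with Trizol and sequenced poly(A) mRNA as paired ends. The deposited counts are whole numbers per gene, and the deposited FPKM values are the authors' normalization to transcript length and library size. The submitters' processing notes list HISAT2 2.0 and StringTie 1.3.0, while the build and the counting settings are not given in the sources used here. The commonest counts above 0 were 4 and 8, so 12 counts (3 fragments) were taken as the limit of detection, which covers counting error only.

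The members and gene lists were chosen with earlier results of these data known. Genes whose FPKM averaged 0.1 or more were tested with edgeR 4.0.16 (R 4.3.3, TMM, quasi-likelihood test), the 2 groups of each comparison alone, with Benjamini-Hochberg adjustment over all 14772. Exact permutation tests were two-sided over 924 arrangements of log2(FPKM + 1). Beside the 7 genes, the text names genes of their families, list genes called at an adjusted p under 0.05, and the 3 genes most alike by r. Of 203 list symbols, 15 were not analysed here. DESeq2 1.42.0, limma 3.58.1, 1 fit over all groups, the replicate block and covariates were alternatives, and the steps were tested on simulated data. No library held the values of another (0 identical pairs). The replicates are 6 rats a group.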

Additional observations from a re-analysis of the deposited data

Results flagged for a closer look

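Dixon's 95% limit was applied to FPKM without logs. Its chance rate of about 1 in 20 holds for normally distributed values. Within a group FPKM spanned up to 388-fold, so the count below cannot be set against that rate. In 11 of 28 pairs of gene and group, 1 library lay farther from the rest of its group than this limit allows, each time at the high end. Ankrd1 did so in all 3 exercised groups, at 38.5 FPKM in treadmill replicate 5, 18.6 FPKM in catgut group 1 replicate 4 and 26.9 FPKM in catgut group 2 replicate 2. Control replicate 2 did so for Ankrd2 (30.2 FPKM), Csrp3 (117 FPKM) and Xirp1 (56.7 FPKM), and in this library the summed slow-fibre level was 1931 FPKM, the highest of the control group. Control replicate 4 did so for Thbs1, at 3.20 FPKM. Treadmill replicate 4 did so for Ccn1, at 205 FPKM, and treadmill replicate 2 for Ccn2, at 35.1 FPKM. Catgut group 1 replicate 5 did so for Thbs1 (9.94 FPKM) and Xirp1 (62.7 FPKM).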

How the results depend on the processing

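Of the 7 genes, DESeq2 called 2 instead of 1 in treadmill against control (a count that the choice of genes fixes), 2 instead of 0 in catgut group 1 against control and 2 instead of 1 in catgut group 2 against control. A fit over all 4 groups called 1 in catgut group 1 against control. In catgut group 2 against control the replicate block called 0 (Ccn1 at 1.72, adjusted p = 0.0748), the Y-linked level as a covariate 2 (with Thbs1 at a log2 fold change of 1.63, adjusted p = 0.0369) and the slow-fibre level 0. Leaving out each replicate in turn gave 0 to 1 (0 without control replicate 4), 0 to 1 (1 without control replicate 2 or catgut group 1 replicate 3) and 1 to 2 (2 without control replicate 4) in these 3 comparisons.

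Over all genes, treadmill against control had 8 calls, with 4 under no filter, 113 by DESeq2, 15 in the fit over 4 groups, 5 with the Y-linked level and 0 to 12 with each replicate left out. Catgut group 1 against control had 3, with 167 by DESeq2, 20 over 4 groups, 1 with the block, 7 with the slow-fibre level and 0 to 12 with each replicate left out. Catgut group 2 against control had 75, with 712 by DESeq2, 0 with the block, 135 with the Y-linked level, 27 with the slow-fibre level and 12 to 492 with each replicate left out. Catgut group 1 against treadmill had 7, with 140 by DESeq2, 4 by limma, 4 over 4 groups, 2 with the block, 16 with the Y-linked level and 2 to 6 with each replicate left out. Catgut group 2 against treadmill had 35, with 306 by DESeq2, 20 by limma, 54 over 4 groups, 3 with the block and 6 to 30 with each replicate left out. Catgut group 2 against catgut group 1 had 1, with 8 by DESeq2, 0 over 4 groups, 0 with the block and 0 to 2 with each replicate left out. The causes were not tested.

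The labels give no pairing for the replicate numbers. Over the 6 comparisons, 0 to 5 of 12 libraries correlated best with their own number in the other group, and 0 to 3 of 6 pairs had an r above 0.1.

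Some differences that were not called changed sign. With the slow-fibre level, Ankrd2 came to -0.27, -0.22, -0.80 and -0.59 (catgut groups 1 and 2 against control, then against treadmill), Csrp3 to -0.29 (catgut group 1 against control) and -0.31 (catgut group 2 against treadmill), and Xirp1 to -0.51 and -0.18 (catgut group 2 against control and treadmill). By limma, Ankrd1 came to -0.068 and 0.10 in catgut group 2 against control and treadmill, and with the block to -0.11 and 0.14. In treadmill against control it went from 0.50 to -0.17 by limma and to -0.32 with the block. With the block, Ankrd2 came to -0.64 in catgut group 1 against treadmill. With the Y-linked level, catgut group 2 against treadmill came to 0.0079 for Ccn1 and 0.26 for Ankrd1. With each replicate left out, Ankrd1 ranged from -0.91 to 0.81, -1.08 to 0.14, -0.60 to 0.48, -1.58 to 0.73, -1.10 to 1.09 and -0.43 to 1.26 in the 6 comparisons as ordered above. In catgut group 1 against treadmill the ranges were -0.13 to 0.37 (Ccn2), -0.25 to 0.44 (Thbs1), -0.18 to 0.51 (Ankrd2) and -0.10 to 0.40 (Xirp1). In catgut group 2 against treadmill they were -0.21 to 0.14 (Ccn1), -0.060 to 1.26 (Csrp3) and -0.11 to 0.23 (Xirp1), and between the catgut groups -0.0029 to 0.34 (Ccn2) and -0.38 to 0.23 (Xirp1).

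With levels centred within groups, r was 0.83 for Ccn1 with Btg2, 0.85 for Thbs1 with Plk3, 0.83 for Ankrd1 with Mylk4, 0.94 for Ankrd2 with Myoz2 and 0.95 for Csrp3 with Hspb7. With a pseudocount of 0.1 the last 2 were 0.96 and 0.95. Depth limits Ankrd2 most, with 7 counts in its lowest library.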
